A study of Mus musculus with 15 samples.

Results

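A set of 10 genes that store, shield, release or import fatty acids in cells was followed in mouse liver. The members were chosen by name from the gene count table, and they are Pparg, Cd36, Fabp4, Cidea, Cidec, Plin2, Plin4, Plin5, G0s2 and Pnpla2, 10 of its 37991 gene identifiers. Each matched 1 identifier by symbol, 9 had enough counts to be tested, and Cidea, with at most 3 counts in a liver, did not. RNA sequencing of whole liver covered 15 female C57BL/6 mice on chow, with 5 young wild-type mice of 90 days (young WT), 5 old wild-type mice of 600 days (old WT) and 5 old S6K1 KO mice of 600 days (old KO). The KO mice lack S6K1, the kinase encoded by Rps6kb1, in the whole body, and WT and KO mice came from heterozygous breeding. There was no young KO group, so genotype was compared at 600 days alone. Total counts per liver were 21801754 to 38065359, and the 10 genes took between 0.0757% (old KO 1) and 0.276% (young WT 1) of them. Rps6kb1 stood at 33.3 to 45.4 CPM (counts scaled to the size of each library) in the 10 WT livers. In the old KO livers it stood at 15.2 to 20.8 CPM (log2 fold change -1.17, edgeR adjusted p 8.54e-06). The level set the labelled KO livers apart from the WT livers, and part of the RNA remained in the KO livers.

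Hepatocytes keep surplus fatty acids as triglyceride in lipid droplets, which are wrapped in perilipins and enlarged by proteins of the CIDE family. Adipose triglyceride lipase, the product of Pnpla2, opens the store and G0s2 restrains that lipase, while Cd36 and the fatty acid binding proteins bring fatty acids in and carry them. The receptor PPAR-gamma, encoded by Pparg, and its relative PPAR-alpha turn on many of these genes, as partners of RXR, at pairs of a short DNA motif.

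Plin4 and Plin5 are neighbours on the same strand of chromosome 17, and the other genes lie apart. All are annotated as protein coding, and positions are given on NCBIM37. Because the sites of PPAR and RXR lie in DNA near such genes, the bases before the RefSeq start site were searched for that motif, AGGTCA, on either strand (TGACCT where it runs the other way), and for that run repeated in the same direction with 1 base between, allowing 2 mismatches in the pair. RefSeq (GRCm38.p6) gave 12 windows of 250 bases for 8 of the genes, and they were placed on NCBIM37 by exact match. The motif stood in 5 of the 12 windows and in 14.02% of all 32851 windows. Pparg, Cidec and Plin5 have more than 1 window each, and more than 1 of the 5 is a Pparg window, so windows are not independent genes. A repeat with up to 2 mismatches stood in 2 of the 12, those of Plin2 and Cd36, and in 3.24% of all windows, and no exact repeat was found in the 12 (0.033% of all). Plin2 and Cd36 are shown with single motifs and repeats in capitals, the Plin2 repeat beginning 225 bases and the Cd36 repeat 63 bases before the start. Each holds 1 exact motif, inside the repeat in Plin2 and apart from it in Cd36. Cidec and Pnpla2 are shown since their RNA fell with age, and neither holds a motif or repeat. These matches are letters in a window, not measured binding. The Cd36 window precedes a RefSeq start inside the gene as annotated, whose 5′ end is at 17394777. Plin2 is chr4:86315965-86316213 (minus strand, without the last base, which lies in an annotated exon), Cd36 is chr5:17341715-17341964 (minus strand), Cidec is chr6:113385755-113386004 (minus strand) and Pnpla2 is chr7:148640837-148641086 (plus strand), each written 5′ to 3′.
Plin2: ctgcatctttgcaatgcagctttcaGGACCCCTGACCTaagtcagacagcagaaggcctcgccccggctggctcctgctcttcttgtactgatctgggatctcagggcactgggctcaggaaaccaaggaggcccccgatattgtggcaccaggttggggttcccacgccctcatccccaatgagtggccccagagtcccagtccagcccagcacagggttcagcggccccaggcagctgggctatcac
Cd36: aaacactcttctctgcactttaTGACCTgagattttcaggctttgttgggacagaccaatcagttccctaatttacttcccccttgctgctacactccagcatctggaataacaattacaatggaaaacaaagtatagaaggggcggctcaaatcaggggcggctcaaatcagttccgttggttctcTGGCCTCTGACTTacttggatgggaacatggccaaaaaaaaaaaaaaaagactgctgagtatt
Cidec: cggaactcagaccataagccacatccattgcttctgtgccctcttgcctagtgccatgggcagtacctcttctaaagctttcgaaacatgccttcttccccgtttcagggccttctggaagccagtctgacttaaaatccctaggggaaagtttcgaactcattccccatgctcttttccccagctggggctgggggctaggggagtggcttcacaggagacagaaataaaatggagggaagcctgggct
Pnpla2: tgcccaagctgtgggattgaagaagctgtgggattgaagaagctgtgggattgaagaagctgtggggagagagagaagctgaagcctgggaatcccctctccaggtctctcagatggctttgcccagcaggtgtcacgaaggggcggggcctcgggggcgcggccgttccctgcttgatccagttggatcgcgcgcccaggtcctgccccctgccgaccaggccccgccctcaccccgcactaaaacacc

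With age, 2 of the 9 tested genes changed, and both fell. Cidec, which fuses droplets into larger ones, was 9.23-fold lower in old WT than in young WT livers, and Pnpla2, the first lipase of the droplet, was 2.35-fold lower. Pparg and Cd36 were the 2 genes with a higher fitted level in old WT, and neither passed the threshold. Of all 14258 tested genes, 18.8% passed it (edgeR's quasi-likelihood test, Benjamini-Hochberg adjusted p under 0.05), 9.92% higher and 8.91% lower in old WT. Between old KO and old WT livers, none of the 9 genes passed, against 0.533% of all genes. Library sizes for CPM were scaled by TMM, and lists of values run in the order young WT 1, 2, 3, 4 and 6, old WT 1, 4, 5, 7 and 10, and old KO 1, 2, 4, 5 and 6. The comparisons share libraries (old WT stands in both the age and the genotype contrast), so their changes are not independent.

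**Figure D1:**
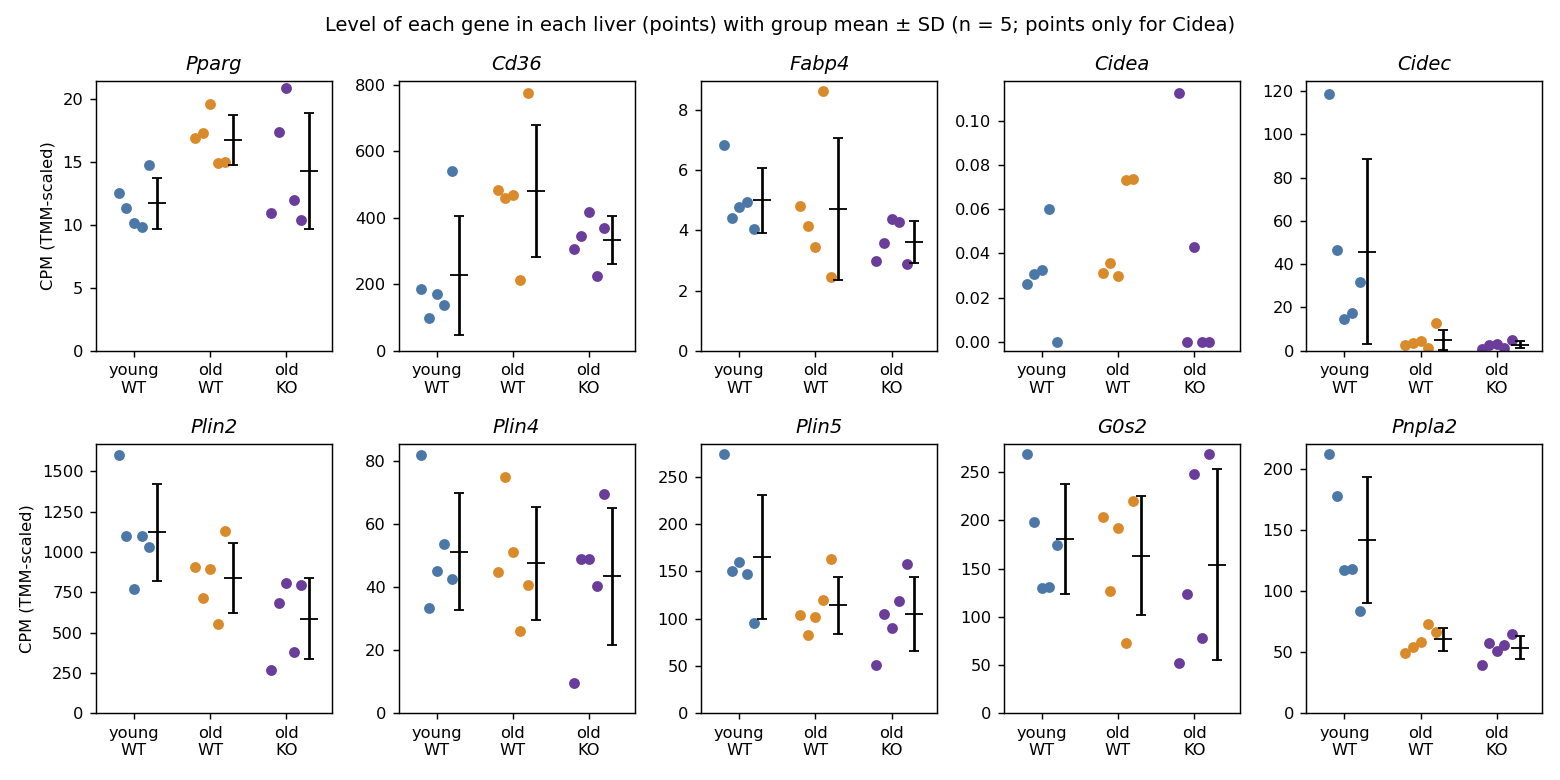
Level of each of the 10 genes (CPM, linear axis) in each liver, with a point for each liver and, for all but Cidea, a bar for the group mean ± SD (n = 5). Cidec and Pnpla2 are lower in every old WT and old KO liver than in every young WT liver, and Pparg is higher in every old WT than in every young WT liver.

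Cidec (ENSMUSG00000030278) is a minus-strand gene of chromosome 6 (113374628 to 113385754). It had 119, 46.7, 14.5, 17.2 and 31.7 CPM in young WT, 2.78, 3.70, 4.35, 1.36 and 12.8 CPM in old WT, and 0.899, 2.80, 3.30, 1.43 and 5.06 CPM in old KO livers. All 10 old livers lay below all 5 young ones, although the nearest pair, old WT 10 and young WT 3, were 12.8 and 14.5 CPM. Group means were 45.8 ± 42.8 CPM in young WT, 4.99 ± 4.48 CPM in old WT and 2.70 ± 1.64 CPM in old KO (SD, n = 5 each), so the spread among young livers was nearly as large as their mean. The log2 fold change with age was -3.21 (SE 0.637, 95% interval -4.56 to -1.86, edgeR adjusted p 0.0036). Single livers moved its size. It was -2.47 without young WT 1, the liver with the highest level, and -3.90 without old WT 10, and the gene stayed under the threshold in all 15 fits that left out 1 liver. Old KO against old WT gave -0.90 (95% interval -2.32 to 0.52, adjusted p 0.662), an interval that holds no change, a further fall and a rise. Without old WT 10 that change was -0.20. Old KO against young WT gave -4.10 (SE 0.682, adjusted p 0.000889), or -3.36 without young WT 1.

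Cidea (ENSMUSG00000024526, chromosome 18), the CIDE protein of brown fat, was close to absent. It had 1, 1, 1, 2 and 0 counts in young WT, 1, 1, 1, 2 and 2 counts in old WT, and 3, 0, 1, 0 and 0 counts in old KO livers. A count of 0 allows up to 3 counts, or 0.109 to 0.139 CPM in the 4 livers without one. The groups overlapped, and an exact 2-sided permutation test on log2 of CPM plus 0.1 gave p 0.159 for age, 0.294 for genotype and 0.921 for old KO against young WT (n = 5 each, smallest possible p 0.00794). No difference in Cidea was detected, and a difference between levels this low could not be resolved at this depth. Of its exon bases, 20 overlap a noncoding RNA on the opposite strand, B430212C06Rik.

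Within the CIDE family, levels per length set Cidec against Cideb, the member of hepatocytes that loads lipid onto lipoproteins. Young WT livers had 20.5 to 21.3 CPM of Cideb per kb of exon, old WT livers 16.7 to 19.8 and old KO livers 16.95 to 21.2. For Cidec the same ranges were 7.80 to 64.01, 0.731 to 6.87 and 0.484 to 2.73 CPM per kb. In young livers the range of Cidec spanned that of Cideb, with its median below (17.1 against 20.97 CPM per kb), and in all 10 old livers Cidec stood below Cideb. Cideb itself was lower in old WT than in young WT by a log2 change of -0.21 (edgeR adjusted p 0.0453), a call that held in 4 of the 15 fits with 1 liver left out, those without old WT 10, old KO 1, old KO 4 or old KO 6, and was lost when no low-count genes were removed (adjusted p up to 0.174 over the alternatives).

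Pnpla2 (ENSMUSG00000025509) is a plus-strand gene of chromosome 7 (148641097 to 148646642). It had 212, 177, 117, 118 and 83.7 CPM in young WT, 49.7, 54.4, 58.1, 73.4 and 66.6 CPM in old WT, and 39.7, 57.8, 50.9, 56.0 and 64.6 CPM in old KO livers. The lowest young liver was above the highest old one, and old WT and old KO livers lay in 1 common range. Means were 142 ± 51.7, 60.4 ± 9.55 and 53.8 ± 9.29 CPM (SD, n = 5 each), with the old groups less spread than the young. The log2 fold change with age was -1.23 (SE 0.207, 95% interval -1.67 to -0.79, edgeR adjusted p 0.0014), and it was -1.36 to -1.04 with 1 liver left out, called each time. Old KO against young WT gave -1.40 (SE 0.208, adjusted p 0.000409), and old KO against old WT gave -0.17 (95% interval -0.60 to 0.27, adjusted p 0.821).

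G0s2 (ENSMUSG00000009633), chromosome 1, minus strand, 195098355 to 195099382, encodes the inhibitor of that lipase. It had 269, 198, 130.4, 131 and 175 CPM in young WT, 203, 127, 192, 72.9 and 220.4 CPM in old WT, and 52.1, 124, 248, 77.6 and 268 CPM in old KO livers. The groups overlapped widely, and old KO livers spanned a 5.15-fold range. The log2 fold change was -0.15 with age (95% interval -0.99 to 0.69, adjusted p 0.828) and -0.08 with genotype (95% interval -0.93 to 0.76, adjusted p 0.969), so these livers leave room for a change of either sign. Per length, the level of G0s2 was 3.985 to 7.48 times that of Pnpla2 in young WT livers (median 4.01). In old WT livers the ratio was 14.7, 8.36, 11.9, 3.56 and 11.9, with 4 of 5 above every young liver and old WT 7 below them all. Old KO livers had ratios of 4.71, 7.71, 17.4, 4.97 and 14.9 (median 7.71) and overlapped both other groups. The ratio is given as a description, and no test was run on it.

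**Figure D2:**
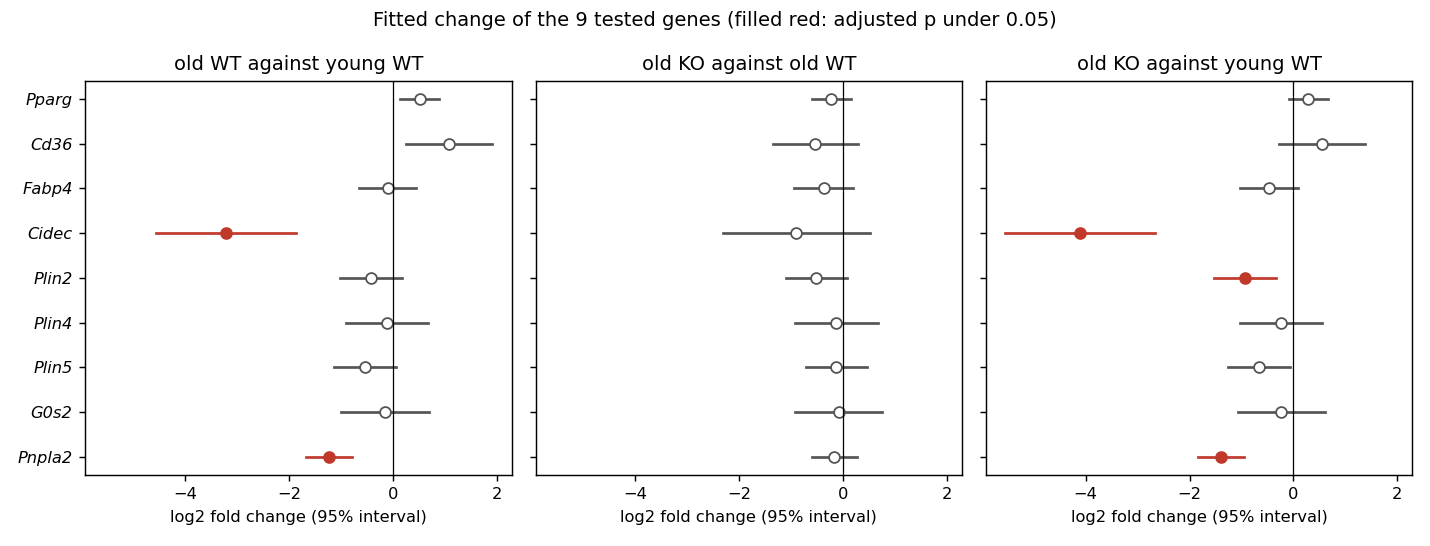
Fitted log2 fold change (points, 1 axis scale in all panels) with its 95% interval (bars) for the 9 tested genes in the 3 comparisons, filled red where the edgeR adjusted p is under 0.05. Cidec and Pnpla2 pass with age, none passes between old KO and old WT, and Cidec, Plin2 and Pnpla2 pass between old KO and young WT.

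The perilipins coat the droplet and govern access to it. Plin2 (ENSMUSG00000028494, chromosome 4, minus strand, 86294290 to 86315964), the main coat protein of hepatocyte droplets, had 1604, 1097, 774, 1102 and 1030.2 CPM in young WT, 908, 716, 892, 552 and 1128 CPM in old WT, and 269.8, 682, 810.2, 378 and 797 CPM in old KO livers. Means were 1121 ± 301, 839 ± 217 and 587 ± 248 CPM (SD, n = 5 each), with overlap between each pair of groups. Neither the age nor the genotype change passed the threshold (age -0.42, 95% interval -1.01 to 0.17, adjusted p 0.313, and genotype -0.51, 95% interval -1.11 to 0.08, adjusted p 0.506), and the genotype value had the lowest unadjusted p among the 9 genes (0.0843). Old KO against young WT, where age and genotype both differ, gave -0.93 (SE 0.281, edgeR adjusted p 0.0256). That call was lost without young WT 1 (-0.77, adjusted p 0.074) and without old KO 5 (-0.81, adjusted p 0.066), and leaving out both young WT 1 and old KO 1 gave -0.59 (adjusted p 0.115).

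Plin5 (ENSMUSG00000011305, chromosome 17, minus strand, 56251024 to 56257019), which tethers droplets to mitochondria, had 274, 151, 159.7, 147 and 95.03 CPM in young WT, 103, 82.9, 102, 119 and 163 CPM in old WT, and 50.7, 105, 90.0, 119 and 157 CPM in old KO livers. The groups overlapped, and the age change of -0.53 (95% interval -1.13 to 0.06) had an adjusted p of 0.198. For genotype the change was -0.13 (95% interval -0.72 to 0.47, adjusted p 0.919). Against young WT the old KO livers gave -0.66 (adjusted p 0.0998), and this value passed without young WT 6 (-0.80, adjusted p 0.0422) or old KO 6 (-0.86, adjusted p 0.0418). Plin4 (ENSMUSG00000002831, chromosome 17, minus strand, 56240014 to 56249225), a perilipin best known from adipocytes and muscle, had 81.9, 33.5, 45.0, 53.7 and 42.6 CPM in young WT, 44.8, 74.9, 51.0, 26.2 and 40.8 CPM in old WT, and 9.77, 48.9, 49.0, 40.5 and 69.5 CPM in old KO livers. Group means of 51.3 ± 18.5, 47.6 ± 17.8 and 43.5 ± 21.7 CPM (SD, n = 5 each) lay within 1 SD of each other, and the changes were -0.11 with age (adjusted p 0.864) and -0.13 with genotype (adjusted p 0.943). The signs of the Plin4 and G0s2 changes with age and genotype, of Fabp4 with age and of Plin5 with genotype turned when 1 liver was left out.

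Per length, the medians of the perilipins kept 1 order in all groups, though the ranges of Plin3 and Plin4 overlapped. Plin2 ranged from 76.8 to 457 CPM per kb over the 15 livers, and Plin5 from 24.3 to 131. Plin3, a perilipin that is no member of the set, ranged from 9.24 to 15.6 CPM per kb, and Plin4 from 1.70 to 14.2. Plin1, the coat of adipocyte droplets, had at most 3 counts in a liver. Plin3 was the perilipin that passed with age, with a log2 change of 0.38 (edgeR adjusted p 0.0376), and it kept that call in 9 of the 15 leave-out fits, losing it without young WT 2, young WT 3, young WT 4, old WT 1, old WT 4 or old WT 7 (adjusted p up to 0.150 over the alternatives).

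**Figure D3:**
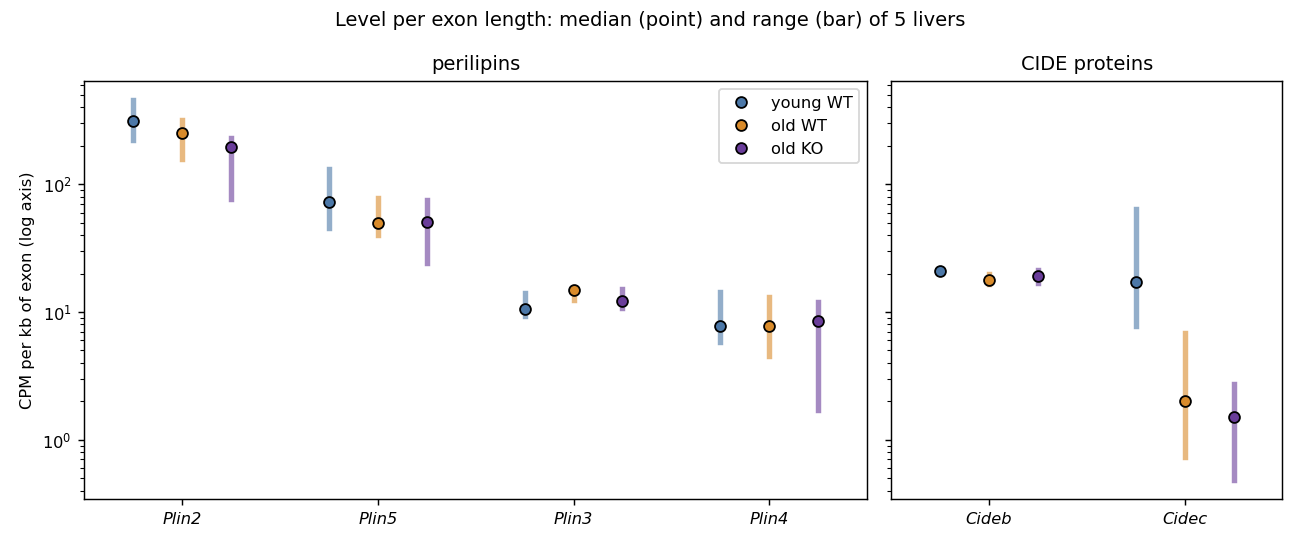
Level per exon length (CPM per kb, log axis) of the perilipins with more than 3 counts and of Cideb and Cidec, as median (point) and range (bar) of 5 livers in each group. Plin2 is the highest perilipin in every group, and the Cidec range spans that of Cideb in young WT and lies below it in both old groups.

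Genes of fatty acid uptake and the receptor that regulates them came next. Cd36 (ENSMUSG00000002944, chromosome 5, minus strand, 17287508 to 17394777), the fatty acid translocase, had 185, 98.01, 171, 138 and 539 CPM in young WT, 485, 459, 469, 214 and 775 CPM in old WT, and 305, 344, 418, 225 and 368 CPM in old KO livers. Each old WT liver exceeded 4 of the 5 young livers, and young WT 6, at 539 CPM, exceeded 4 of the 5 old WT livers. Means were 226 ± 178, 480.3 ± 199 and 332 ± 72.4 CPM (SD, n = 5 each). The log2 fold change of 1.09 with age (SE 0.393, 95% interval 0.25 to 1.92) missed the threshold (edgeR adjusted p 0.0636), and it passed under limma voom (1.22, adjusted p 0.0372), without young WT 6 (1.71, adjusted p 0.00143) and without old WT 7 (1.28, adjusted p 0.0286). Adjusted p ran from 0.00143 to 0.154 over the alternatives. Old KO against old WT gave -0.53 (95% interval -1.36 to 0.29, adjusted p 0.652), and old KO against young WT gave 0.55 (adjusted p 0.321), or 1.17 (adjusted p 0.009) without young WT 6.

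Pparg (ENSMUSG00000000440, chromosome 6, plus strand, 115311239 to 115440419) had 12.6, 11.3, 10.1, 9.79 and 14.8 CPM in young WT, 16.9, 17.3, 19.6, 14.9 and 14.96 CPM in old WT, and 10.9, 17.4, 20.9, 11.9 and 10.3 CPM in old KO livers. All 5 old WT livers stood above all 5 young WT livers, though young WT 6 (14.79 CPM) and old WT 7 (14.88 CPM) nearly met. Pparg, Cidec and Pnpla2 were the 3 tested genes without overlap between the age groups, where 11.4% of all tested genes had none. The log2 fold change of Pparg with age was 0.52 (SE 0.178, 95% interval 0.14 to 0.89, edgeR adjusted p 0.0528). It lay at the threshold, and its side changed with the test: DESeq2 (0.51, adjusted p 0.0321), limma voom (0.54, adjusted p 0.0334), upper quartile scaling (0.52, adjusted p 0.0477) and the 10 libraries alone (0.51, adjusted p 0.0188) passed, as did the fits without young WT 6, old WT 7, old KO 1, old KO 4 or old KO 6 (adjusted p 0.0253 to 0.0492), within a range of 0.0188 to 0.235 over all alternatives. In old KO the livers split around the old WT range, with 3 below every old WT liver and 1 above. Those 3 lay within the young WT range. The change in old KO was -0.23 against old WT (95% interval -0.60 to 0.15, adjusted p 0.678) and 0.29 against young WT (adjusted p 0.255).

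Fabp4 (ENSMUSG00000062515, chromosome 3, minus strand, 10204347 to 10208576), a fatty acid carrier of adipocytes, macrophages and endothelium, was low. It had 6.84, 4.397, 4.79, 4.94 and 4.05 CPM in young WT, 4.81, 4.16, 3.46, 8.65 and 2.46 CPM in old WT, and 2.995, 3.60, 4.37, 4.28 and 2.88 CPM in old KO livers. The groups overlapped, with the highest and the lowest of the 15 values both in old WT. Changes were -0.09 with age (95% interval -0.65 to 0.46, adjusted p 0.833) and -0.38 with genotype (95% interval -0.94 to 0.19, adjusted p 0.633).

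**Figure D4:**
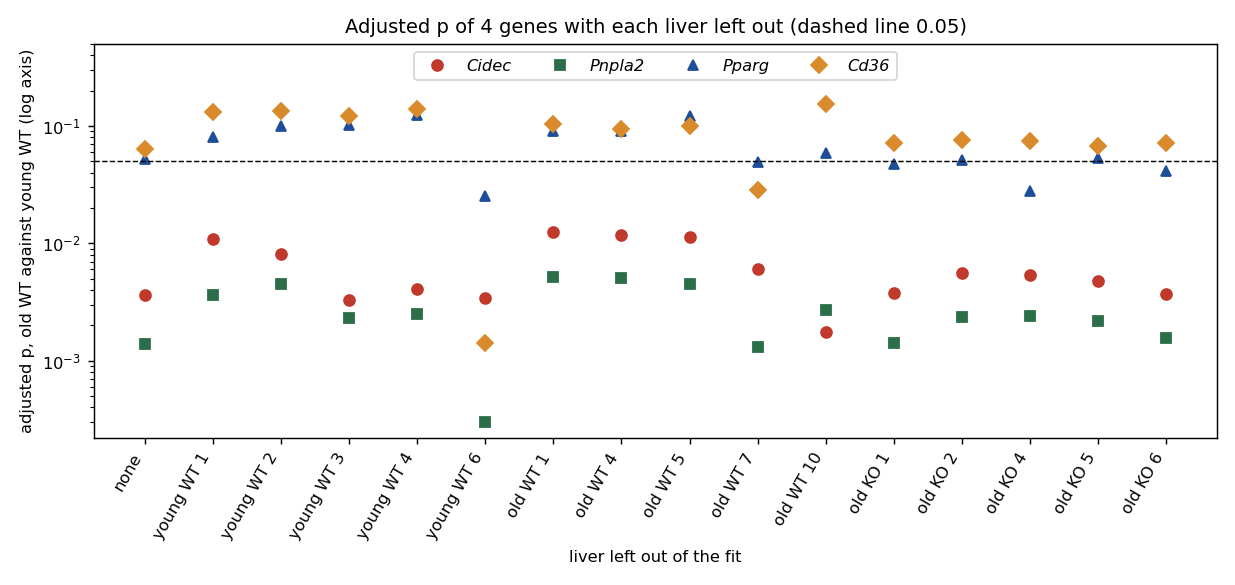
Adjusted p (log axis) of Cidec, Pnpla2, Pparg and Cd36 in old WT against young WT with no liver or each of the 15 livers left out, the dashed line marking 0.05. Cidec and Pnpla2 stay under the line throughout, Pparg crosses it in 5 of 15 fits and Cd36 in 2.

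Counted over the set, age gave 0 higher and 2 lower calls, and 4 of 9 genes had an unadjusted p under 0.05, as had 33.0% of all tested genes. DESeq2 called 3 and limma voom 4, the added genes being Pparg and, for voom, Cd36. Without young WT 6 or without old WT 7 the count was 4, 2 of them higher. The share called, 22.2% (2 of 9), stood near the 18.8% of all tested genes. Their median log2 change was -0.15, beside 0.01 for all tested genes. For genotype the edgeR test called 0 of 9, with 0 at an unadjusted p under 0.05 (11.6% of all tested genes) and 0 by DESeq2 and by limma voom, and in none of the 9 were the groups without overlap, against 3.20% of all genes. All 9 fitted genotype changes were negative, with a median of -0.23 beside 0.0008 for all tested genes, but signs of Plin4, Plin5 and G0s2 turned with old KO 1 left out. Between old KO and young WT 3 of 9 were called, all lower (23.3% of all genes called, 11.3% lower), and the groups of 2, Cidec and Pnpla2, did not overlap (13.9% of all genes). DESeq2 and limma voom also called 3, and 4 had an unadjusted p under 0.05, near the 36.8% of all tested genes. Without young WT 6 the count was 5.

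Single livers stood apart across several genes. Young WT 1 was the highest of its group for 7 of the 9 tested genes, all except Pparg and Cd36. Old KO 1 was the lowest of its group for 6, namely Plin2, Plin4, Plin5, Cidec, G0s2 and Pnpla2, and its Plin4, at 9.77 CPM, stood below the 40.5 to 69.5 CPM of the other old KO livers. In old WT, replicate 10 was highest for 5 genes and replicate 7 lowest for 6, yet old WT 7 had the highest Fabp4 and Pnpla2 of its group. Young WT 6 was highest for Pparg and Cd36 and lowest for Plin5, Fabp4 and Pnpla2. Leaving out both young WT 1 and old KO 1 kept the age calls of Cidec (-2.47, adjusted p 0.00976) and Pnpla2 (-1.04, adjusted p 0.00294) and their calls between old KO and young WT.

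**Figure D5:**
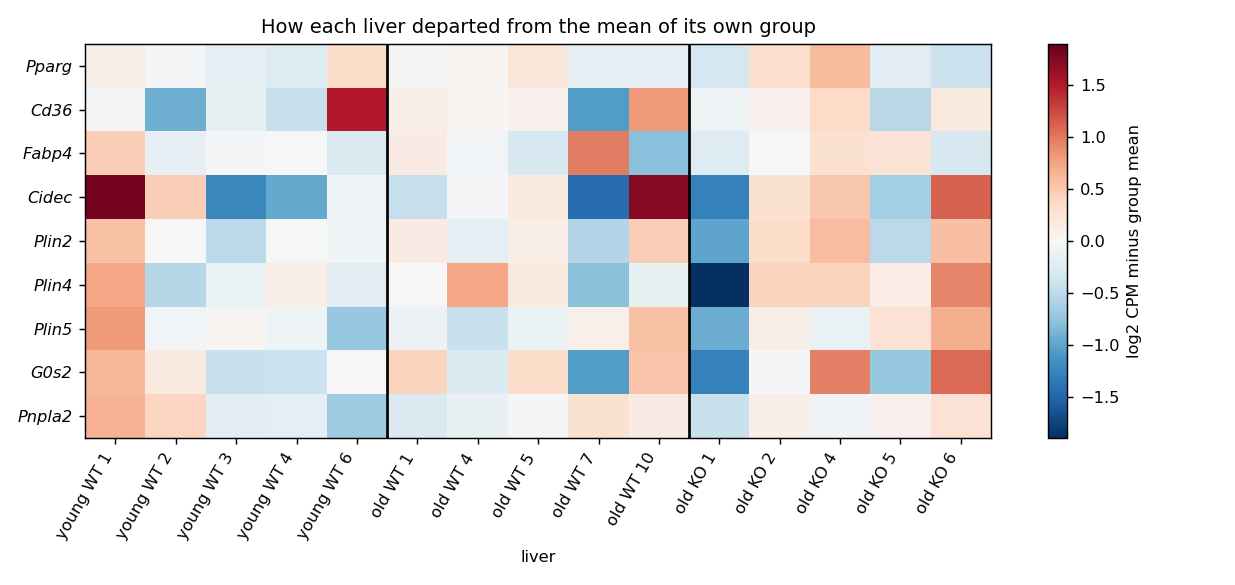
Departure of each liver (columns) from the mean of its own group for the 9 tested genes (rows), in log2 CPM with a prior count of 2, red above and blue below the group mean. Young WT 1 is red for most droplet genes, old KO 1 is blue for them, and young WT 6 and old WT 7 stand out for Cd36 in opposite directions.

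Ordered per length, Cidec and Pparg changed places most between young and old WT livers, Cidec from rank 6 to 9 and Pparg from 9 to 6. In young WT livers mean levels ran from Plin2 (319 CPM per kb) and G0s2 (215) through Plin5 (79.2), Cd36 (57.6), Pnpla2 (46.9) and Cidec (24.7) to Plin4 (8.92), Fabp4 (7.86), Pparg (5.90) and Cidea (0.0257). Only G0s2 and Plin5, and Pparg and Cidea, were neighbours in that order without overlapping ranges. In old WT livers Cd36 (122) stood above Plin5 (54.7), with overlapping ranges. Cidec (2.69) stood next to last by mean, below Pparg (8.43), Plin4 (8.26) and Fabp4 (7.39), whose ranges overlapped each other. The Cidec range (0.731 to 6.87) overlapped those of Fabp4 and Plin4 but not that of Pparg. In old KO livers G0s2 (183) and Plin2 (167) overlapped at the top, and Cidec (1.45) stood below Fabp4 (5.69) without overlap.

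For each tested gene, the 2 most similar of the other tested genes over the 15 livers were found by Pearson's r of log2 CPM. These values mix differences between groups with those between livers, so r after removing group means is given second, and neither carries a test. Each pair was picked as the highest r among 14258 tested genes over 15 livers, and picking alone raises both values. Cidec ran most like Afg3l2 (0.970 and 0.912) and Chkb (0.955 and 0.843), and Pnpla2 most like Atad3a (0.963 and 0.839) and Rrp12 (0.963 and 0.884). Plin2 ran with Wdr73 (0.956 and 0.927) and 2410001C21Rik (0.950 and 0.914), Plin5 with Phb (0.940 and 0.936) and Nubp1 (0.930 and 0.904), and Plin4 with Acaa2 (0.875 and 0.894) and Zfp410 (0.873 and 0.877). Cd36 ran with Gtf2h1 (0.954 and 0.928) and Rtn4 (0.931 and 0.931), and G0s2 with Pex11a (0.933 and 0.947), a peroxisome protein, and AI462493 (0.917 and 0.919). The weakest were those of Pparg, with Hs3st3a1 (0.865 and 0.856) and Jak3 (0.863 and 0.791), and of Fabp4, with Ankrd16 (0.826 and 0.810) and Osbpl7 (0.810 and 0.802).

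Other genes of the droplet were counted whole. Of 21 tested genes that coat droplets, set their size or build and break down triglyceride, 3 were higher and 7 lower in old WT than in young WT (median -0.10). For this list and those of the next paragraph, the share of all tested genes called with age was 18.8%, with 9.92% higher and 8.91% lower. Fitm1, which buds droplets from the endoplasmic reticulum, had 3.57 ± 1.31 CPM in young and 23.5 ± 12.1 CPM in old WT livers (SD, n = 5 each), and rose by 2.73 on the log2 scale (edgeR adjusted p 0.00176). Lpin1, a phosphatidate phosphatase, fell by 2.33 on the log2 scale (adjusted p 0.0081), and Hsd17b11, a droplet enzyme, by 0.83 (adjusted p 0.00945). Of the enzymes of the last step of triglyceride synthesis, Dgat1 fell by 0.59 (adjusted p 0.0052, from 27.6 ± 5.96 to 18.3 ± 0.558 CPM), and the more abundant Dgat2, named after its values were seen, rose by 0.54 (adjusted p 0.00269, from 230 ± 24.7 to 335 ± 46.4 CPM). Fitm1, Lpin1, Hsd17b11, Dgat1 and Dgat2 stayed called in all 15 fits with 1 liver left out, while the count of 10 went down to 6 without young WT 2, young WT 4 or old WT 4 and to 5 without old WT 1. Abhd5, the activator of the Pnpla2 lipase, had a change of 0.14 with age (adjusted p 0.25) and was looked at after its values were seen.

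Among 19 genes of fatty acid uptake, binding and activation, 1 was higher and 1 lower with age (median 0.03). Vldlr, a receptor for triglyceride-rich lipoproteins, rose from 14.9 ± 5.97 to 46.5 ± 13.6 CPM (1.64, edgeR adjusted p 0.00139), and Slc27a1, a fatty acid transporter, fell from 48.5 ± 9.62 to 17.0 ± 4.63 CPM (-1.51, adjusted p 0.00127, SD and n = 5 each). Both kept their calls in all 15 leave-out fits, and the count rose to 4 without young WT 6 or old KO 1 and to 5 without old WT 7 and under DESeq2. Of 19 PPAR and RXR receptors, co-regulators and PPAR-alpha targets, 1 was higher and 5 lower (median -0.37). Cyp4a10, a fatty acid hydroxylase, fell by 1.13 (adjusted p 0.0119) and Cpt1a, which admits fatty acids to mitochondria, by 0.63 (adjusted p 0.00749), both called in every leave-out fit, while Ehhadh, Cyp4a14 and Ppargc1a kept their calls in 9, 11 and 5 of the 15 and all lost them without old WT 1, old WT 4 or old WT 5. The higher gene, named after its values were seen, was Rxrg, a partner of PPAR, with 0.54 (adjusted p 0.0226, and 0.0583 without old WT 1). The count of 6 fell to 3 without old WT 4 or old WT 5 and to 2 without old WT 1.

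Between old KO and old WT 0 genes of these 3 lists were called by edgeR, with medians of -0.02, -0.03 and -0.17 and 1, 2 and 3 genes at an unadjusted p under 0.05. Of all tested genes 0.533% were called there and 11.6% had an unadjusted edgeR p under 0.05, and 23.3% were called between old KO and young WT. Between old KO and young WT 3 were higher and 5 lower, 3 higher and 4 lower, and 1 higher and 6 lower, in the order given. With 1 liver left out the second of these counts went from 7 to 4 (without young WT 2, young WT 4, old KO 2 or old KO 5), and the third from 7 to 11 (without old KO 6).

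Markers of other cell types were read beside these values, because in whole liver fewer cells of a type and less RNA per cell cannot be told apart. Their counts of calls stand beside 18.8% of all tested genes called with age and 0.533% with genotype. Hepatocyte markers were abundant, with Alb at 89856 CPM in young WT, 85111 in old WT and 98460 in old KO livers on average. The defining adipocyte markers were near 0, with at most 8 counts of Adipoq, 3 of Lep, 3 of Plin1, 5 of Retn and 9 of Cfd in a liver. Of the 8 adipocyte genes 3 were tested, and young WT livers held a summed 120.1 to 587 CPM of the list, old WT livers 325 to 2647 and old KO livers 406 to 2039, nearly all of it Car3, which hepatocytes also express and which rose with age (2.01, edgeR adjusted p 0.0188) but lost its call without young WT 1 or old WT 5. Lipe, a lipase also counted among the droplet genes, was lower with age (-0.42, edgeR adjusted p 0.0367) and called in 8 of the 15 leave-out fits (not without young WT 1, young WT 2, young WT 4, old WT 1, old WT 4, old WT 5 or old WT 7), and Adrb3 gave -0.30 (adjusted p 0.446).

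Of the macrophage markers, the share called was near that of all tested genes with age and above it with genotype. With age 9 of 10 had a higher fitted level in old WT (median 0.45), and 2 were called, Trem2 (0.76, edgeR adjusted p 0.00252) and Gpnmb (3.39, adjusted p 0.00414), both in all 15 leave-out fits. All 10 had a lower fitted level in old KO than in old WT (median -1.19), 4 of them called (Cd5l, Clec4f, Vsig4 and Cd68), and their sum ran from 165 to 365 CPM (young WT), from 192 to 507 (old WT) and from 120.1 to 170.3 (old KO), without overlap between the old groups. The 4 calls depended on single livers, with 0 left without old WT 1, old WT 4, old KO 2, old KO 4, old KO 5 or old KO 6, 1 without old WT 10 and 2 without young WT 4 or old WT 7. Trem2 and Gpnmb, the age calls, were not called with genotype (-0.23, edgeR adjusted p 0.563, and -1.98, adjusted p 0.194). Against young WT, Trem2 was higher in old KO (0.54, adjusted p 0.0139) and Gpnmb was not called (1.41, adjusted p 0.171). Macrophages carry Cd36, Fabp4, Plin2 and Pparg too, and the part of these cells in the age and genotype values of those genes was not tested. Endothelial markers summed to 212 to 366, 158 to 271 and 196 to 224 CPM in young WT, old WT and old KO, with 3 of 9 lower with age, and stellate markers to 349 to 465, 250.1 to 406 and 259 to 434 CPM, with 2 of 8 lower, 0 without young WT 3, young WT 4 or old WT 7 and 1 without old WT 5 or old WT 10. Hepatocyte markers summed to 119327 to 125253 CPM in 4 young WT livers and 74548 in young WT 6, to 85701 to 97120 in 4 old WT livers and 137228 in old WT 7, and to 105945 to 141621 in old KO livers. Most of the hepatocyte sum was Alb in each group. Young WT 6 and old WT 7 are also the livers without which Cd36 passed with age. The part of hepatocyte RNA in that was not tested. With genotype all 6 had a higher fitted level in old KO (median 0.35), while edgeR, DESeq2 and limma voom called 0 and 0 had an unadjusted p under 0.05. With age 2 of the 6, Apoa1 and Cps1, were lower in old WT, 1 without young WT 2 or old WT 1 and 0 without old WT 5, and their part in the falls of Cidec and Pnpla2 was not tested.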

How the data were processed

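RNA from whole frozen livers of 15 mice, 1 library a mouse, was sequenced by the authors from stranded poly(A) libraries with single-end reads. Per the submitters' notes and the study's methods, reads were called with CASAVA, mapped to mm9 with TopHat2 2.0.11 and counted with HTSeq, and the notes name DESeq2 1.18.1. The annotation and the strand setting of the counting are not given in the sources used here, so reads of overlapping genes cannot be told apart (Plin4 shares 6 exon bases with Hdgfrp2). The deposited values are raw counts per gene, not normalized and not pooled. Every column matched 1 sample title, which gave group and replicate number.

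Counts were scaled by TMM, filtered with filterByExpr and tested in edgeR 4.0.16 (R 4.3.3) with glmQLFit and glmQLFTest on all 15 libraries and 14258 genes, with a threshold of 0.05 on p adjusted by Benjamini-Hochberg over all of them. DESeq2 1.42.0 and limma voom (limma 3.58.1), other scalings and filters, and fits without single livers were alternatives. Standard errors belong to the fitted changes, and log2 CPM used a prior count of 2. The scripts were tested on simulated data. Intervals of the fitted changes rest on these standard errors, which include the spread among livers. The CPM allowed for Cidea in livers without a count covers counting error only. Positions and exon lengths came from GENCODE M1, whose build NCBIM37 is the assembly of mm9.

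The 10 genes and the lists beside them (droplet, uptake, PPAR, and markers of hepatocytes, adipocytes, macrophages, endothelium and stellate cells, 112 entries, 109 matched by symbol and 3 by a synonym) were chosen with earlier results of these data known. From the other lists, at most the 5 called genes of largest change per list and comparison could be named. Plin1, Plin3, Cideb and Abhd5 were added as relatives or partners of members, and Rxrg to complete a count, after their values were seen. The 2 most similar genes of each member were named by Pearson's r. Fabp4 and Cidea had no window in the promoter table used.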

Additional observations from a re-analysis of the deposited data

Results flagged for a closer look

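Cidec in old WT 10 (12.75 CPM) stood apart from the other 4 old WT livers, by a gap past Dixon's critical value for 5 samples. So did Cd36 in young WT 6 (539.1 CPM) among the young WT livers. Both gaps were taken on CPM, not on log2 CPM. For normally distributed values such a gap arises by chance in about 1 of 20 groups, and that distribution was not checked. In all, 10 genes in 3 groups were looked at. In log2 CPM, Cidec was 3.68 in old WT 10 and 0.512 to 2.15 in the other 4 old WT livers. Cd36 was 9.07 in young WT 6 and 6.62 to 7.53 in the other young WT livers. The values without either liver are given with each gene above.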

How the results depend on the processing

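Over all alternatives Cidec and Pnpla2 kept their falls with age (-3.90 to -2.47 and -1.43 to -1.04) and between old KO and young WT (-4.45 to -3.14 and -1.54 to -1.12), and no member was called for genotype. With age, limma voom called 4 members, 2 of them higher, and DESeq2, upper quartile scaling and the 10 libraries alone each called 1 higher. With 1 liver left out the age count was 2 to 4 and its higher part 0 to 2, and between old KO and young WT they were 2 to 5 and 0 to 1. The fit without both young WT 1 and old KO 1 was chosen after seeing the data.

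Some uncalled changes turned sign. Leaving out both livers gave, with age, 0.12 for Plin4, 0.047 for Fabp4 and 0.040 for G0s2, with genotype 0.13 for Plin4, 0.0473 for Plin5 and 0.14 for G0s2, and between old KO and young WT 0.25 for Plin4 and 0.18 for G0s2. With 1 liver left out the ranges were -0.33 to 0.12 (Plin4, age), -0.42 to 0.066 (Fabp4, age), -0.28 to 0.0496 (G0s2, age), -0.36 to 0.13 (Plin4, genotype), -0.32 to 0.0473 (Plin5, genotype), -0.38 to 0.14 (G0s2, genotype) and -0.47 to 0.0164 (Plin4, old KO against young WT). The Cidea difference between old KO and young WT went from -0.04 to 0.000502 with a pseudocount of 1.

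Same-numbered livers of different groups did not deviate together (r across genes -0.15 to 0.08 over 9 pairs), so the numbers were not taken as pairs. Young WT 3, old WT 7 and old WT 10 share their number with no other liver. A block on the number takes these livers out of the comparisons and leaves less data to estimate the spread, so calls can be lost for that reason. With the replicate number as a block, Cidec (-3.56, adjusted p 0.044) and Pnpla2 (-1.43, adjusted p 0.0345) still passed with age, Plin2 did not pass between old KO and young WT (-1.03, adjusted p 0.0638), and with age Plin4 gave 0.096 and G0s2 0.0911, with genotype Plin5 0.14 and Pnpla2 0.0018. In that fit 19 of the 27 called genes of the other lists followed one by one lost their calls with age, among them Slc27a1 (adjusted p 0.0559), Lpin1 (0.0538), Dgat1 (0.115), Cyp4a10 (0.0864), Cpt1a (0.157) and Trem2 (0.0872), while Fitm1, Vldlr, Hsd17b11, Dgat2 and Gpnmb passed. The age counts were then 3 droplet, 0 PPAR, 0 adipocyte, 1 macrophage, 1 endothelial and 0 stellate genes, the genotype count of macrophage genes was 0, and between old KO and young WT 0 hepatocyte, 0 adipocyte, 2 macrophage and 0 stellate genes were called.

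Other list counts moved too. DESeq2 called 5 uptake and 4 macrophage genes with age and 5 endothelial genes between old KO and young WT, and limma voom called 4 macrophage genes with age, 1 with genotype and 2 stellate genes between old KO and young WT. Without a filter 1 adipocyte gene was called with age. Without both livers the counts were 1 hepatocyte and 0 adipocyte genes with age, and 2 uptake, 0 adipocyte and 2 stellate genes between old KO and young WT. With 1 liver left out, age counts were 5 to 13 (droplet), 2 to 5 (uptake), 2 to 7 (PPAR), 0 to 3 (hepatocyte), 0 to 2 (adipocyte), 2 to 4 (macrophage) and 0 to 2 (stellate), the genotype count of macrophage genes was 0 to 4, and between old KO and young WT the counts were 4 to 9 (uptake), 6 to 11 (PPAR), 0 to 1 (hepatocyte), 2 to 6 (endothelial) and 1 to 5 (stellate). The cause of these moves was not tested. With 5 livers a group and one estimate of spread, the intervals printed beside each gene are what limits the genotype comparison, and Cidea is limited by its few counts.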
